A study of Mus musculus with 12 samples.

Results

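The spliceosome genes described here are the 122 genes whose pathway term in the deposited tables held the word Spliceosome, out of 22935 genes listed. The 4 heat shock genes of the Hspa family that carry the same term were left out. In BV2 cells, an immortalised line of mouse microglia, 121 of the 122 passed the filter on low counts. The member that did not pass was U2af1l4, a paralog of the small U2AF subunit, with 0 to 5 counts per library. All 9 libraries came from cells given 10 µM oxy-Hb, oxygenated haemoglobin. In 3 of them oxy-Hb was the sole addition, 3 also received C3a, at 20 ug/ul as the label writes it, and 3 also received C3aRA at 50 µM. C3a is the complement fragment that binds the receptor C3aR named in the series title. The labels do not spell out C3aRA, and the unit of the C3a dose is uncertain. No group without oxy-Hb was analysed here, the 3 libraries labelled PBS included. Whether the replicates are separate cultures is not stated, and p-values therefore reflect differences among these libraries that may be technical.

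The spliceosome removes introns from nuclear transcripts. U1 and U2 small nuclear ribonucleoproteins (snRNPs), each built on a ring of Sm proteins, mark the splice sites, and the U4/U6 and U5 tri-snRNP then joins. Helicases and the Prp19 complex remodel the assembly for the cutting and joining steps, and an exon junction complex stays on the product. SR proteins, which hold stretches rich in serine and arginine, bind exons and recruit these parts, while hnRNP proteins coat the transcript and often oppose them. Many genes of SR proteins can make a transcript with a poison exon that is degraded, a known feedback on their own level.

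Libraries held 12934794 to 20479002 counts. Levels are CPM, counts scaled by library total with TMM factors, and carry an SD over 3 libraries. The CPM of cell type markers and of ribosomal protein transcripts were scaled by library total alone, without TMM factors. Log2 fold changes carry an SE worked back from the test, the absolute log2 fold change divided by the square root of F. F came from an edgeR quasi-likelihood fit of 14146 genes in all 9 libraries. A gene was called at a Benjamini-Hochberg adjusted p below 0.05 over all of them. All 8 microglia or macrophage markers listed were in the tables and summed to 1593 to 1899 CPM. Most of this came from Cd68 (804 to 1004 CPM) and Ptprc (379 to 496 CPM). Cx3cr1 (3.66 to 10.5 CPM) and Aif1 (0.78 to 2.91 CPM) were the lowest. Markers of astrocytes, neurons, red cells and endothelial cells or fibroblasts summed to at most 1.65 CPM. These sums held 1 of 4 astrocyte, 1 of 5 neuron, 2 of 5 red cell and 1 of 5 endothelial or fibroblast markers listed. The others were not in the tables. The 3 oligodendrocyte genes in the tables, of 5 listed, summed to 30.1 to 35.3 CPM, mostly from Cnp. The astrocyte gene Gfap had no count in 3 libraries. In bulk RNA a level is a share of the library, so fewer cells making a transcript and less of it per cell cannot be told apart.

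C3a replicate 2 stood apart from the other libraries, and it touches every comparison with C3a. Its first principal component score over all genes was 55.5, against -17.2 to 10.3 in the other 8 libraries. Its ribosomal protein transcripts summed to 56137 CPM, against 36103 to 41198 CPM. Among the spliceosome genes, the 39 with a transcript under 2000 nt stood at a median of 0.39 above their 9-library mean in it on the log2 scale, and the 32 with one over 4000 nt at -0.09. Across the 121 genes, Spearman's rho between this deviation and transcript length was -0.53 there, against -0.12 to 0.34 in the other libraries, a description of points that share a library. Long members were low in C3a replicate 2. Prpf8, the core protein of U5, chosen as an example after its values were seen, stood at 163.5 CPM there and at 305 to 354 CPM elsewhere. Counts of calls with C3a are therefore given with and without this library.

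**Figure D1:**
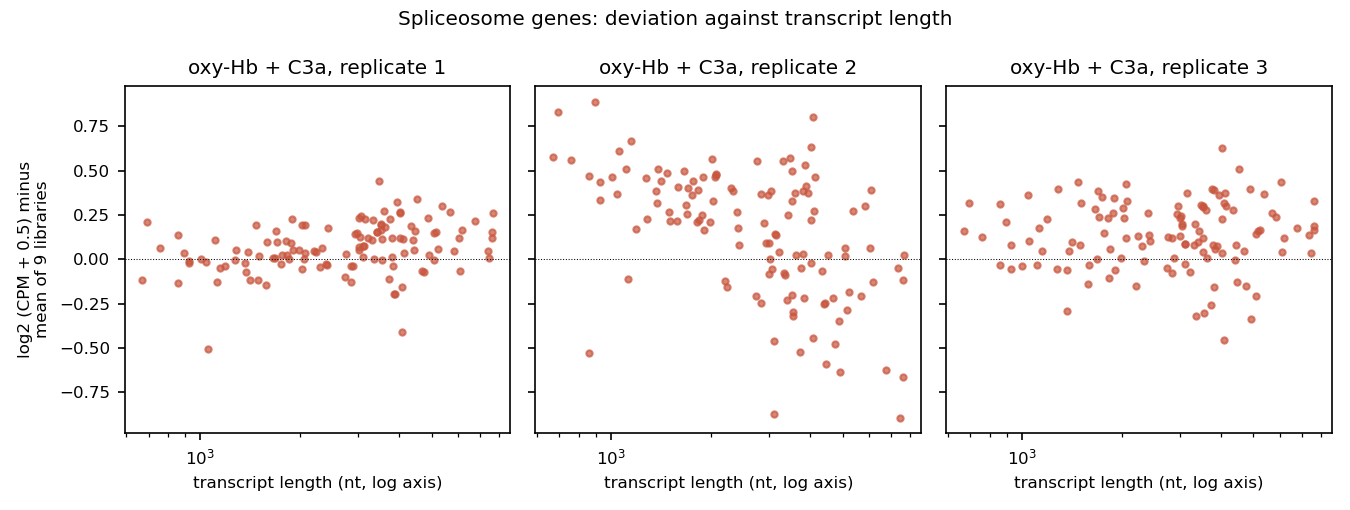
Deviation of each of the 121 tested spliceosome genes from its mean over 9 libraries (vertical axis, log2 of CPM + 0.5) against transcript length in nt (horizontal log axis), for the 3 C3a libraries. In replicate 2 the points fall from left to right (rho -0.53), while replicates 1 and 3 show rho values of 0.34 and 0.06.

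Together the 122 genes took 1.78%, 1.81% and 1.94% of all counts with oxy-Hb alone, 1.99%, 1.92% and 2.06% with C3a and 1.73%, 1.70% and 1.71% with C3aRA. The 3 C3aRA libraries lay below all others, and C3a replicate 2 lay below oxy-Hb replicate 3. Group means stood in the order C3aRA, oxy-Hb alone, C3a, from low to high, for 59 of the 121 tested members (48.8%) and for 20.7% of all tested genes. Of the 11 SR protein and Tra2 genes, 10 followed this order.

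The SR protein genes and the related Tra2 genes, whose products set how often weak exons are kept, had the highest median of the role groups between C3a and C3aRA. Of these 11 genes, 6 were higher with C3a than with C3aRA in the edgeR test and none lower, where 2.87% of all tested genes were higher and 3.32% lower. Without C3a replicate 2, 8 were higher and none lower, where 5.97% and 6.54% of genes were. The counts of the other role groups in this comparison stand against the same shares. Their median log2 fold change was 0.46 in that comparison, against 0.01 over all tested genes. Their counts summed to 2401, 2448 and 2959 CPM with oxy-Hb alone, to 3133, 3368 and 3340.1 CPM with C3a and to 2279, 2126 and 2131 CPM with C3aRA, with no overlap between any 2 groups.

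Promoters are shown for the 5 SR genes whose call between C3a and C3aRA held with each library left out in turn. Each stretch is the 250 bases before the RefSeq start, read 5′ to 3′ on the gene's strand in GRCm38.p6. The coordinates are chr17:29032410-29032659, plus strand for Srsf3, chr11:116853095-116853344, minus strand for Srsf2, chr12:80945249-80945498, plus strand for Srsf5, chr2:162931258-162931507, plus strand for Srsf6 and chr11:88047123-88047372, plus strand for Srsf1. Capitals mark exact matches on either strand. The strings are CCAAT for the CCAAT box, GGGCGG for the GC box, TATAAA for the TATA box, and CCGGAAGT for the ETS family. Adjoining or overlapping matches run together.
Srsf3: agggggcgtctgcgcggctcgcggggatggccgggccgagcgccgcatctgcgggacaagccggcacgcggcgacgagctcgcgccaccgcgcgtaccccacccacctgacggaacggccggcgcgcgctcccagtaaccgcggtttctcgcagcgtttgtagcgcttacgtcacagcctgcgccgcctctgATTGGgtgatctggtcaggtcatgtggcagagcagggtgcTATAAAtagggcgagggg
Srsf2: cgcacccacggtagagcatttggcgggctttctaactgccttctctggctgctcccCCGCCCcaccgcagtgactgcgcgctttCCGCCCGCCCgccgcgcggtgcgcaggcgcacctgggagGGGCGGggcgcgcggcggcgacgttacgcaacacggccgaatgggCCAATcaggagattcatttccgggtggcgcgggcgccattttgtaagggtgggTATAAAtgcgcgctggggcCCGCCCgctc
Srsf5: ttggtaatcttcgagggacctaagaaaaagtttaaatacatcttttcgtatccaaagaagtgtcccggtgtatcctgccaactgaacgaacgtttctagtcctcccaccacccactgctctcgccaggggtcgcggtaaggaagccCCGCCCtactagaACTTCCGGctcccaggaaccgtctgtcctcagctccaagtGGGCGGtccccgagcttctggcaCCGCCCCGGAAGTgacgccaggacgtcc
Srsf6: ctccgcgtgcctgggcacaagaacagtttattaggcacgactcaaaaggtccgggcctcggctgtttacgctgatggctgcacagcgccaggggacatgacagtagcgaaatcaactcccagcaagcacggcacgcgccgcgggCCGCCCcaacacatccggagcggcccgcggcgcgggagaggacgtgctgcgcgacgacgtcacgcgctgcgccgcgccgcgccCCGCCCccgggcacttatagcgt
Srsf1: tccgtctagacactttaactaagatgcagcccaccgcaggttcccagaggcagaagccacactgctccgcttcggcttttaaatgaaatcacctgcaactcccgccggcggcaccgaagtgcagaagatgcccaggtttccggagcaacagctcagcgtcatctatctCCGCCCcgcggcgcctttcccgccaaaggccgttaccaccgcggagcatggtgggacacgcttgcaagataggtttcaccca
Srsf3 and Srsf2 each held TATAAA, beginning 18 and 29 bases before the start, and a CCAAT box beginning 58 and 82 bases before it. Srsf2 held 5 GC boxes, Srsf5 held 3 with 2 ETS matches, Srsf6 held 2 and Srsf1 held 1. TATAAA was found in 2 of the 11 SR and Tra2 promoters, in 8 of the 94 spliceosome promoters matched in RefSeq and in 6.25% of the 9618 promoters of tested genes. CCAAT was found in 4 of the 11, in 39 of the 94 and in 36.5% of all. The GC box was found in 10 of the 11, in 57 of the 94 and in 58.2%, and the ETS letters in 2, in 14 and in 6.62%. Of the other strings searched on both strands, the cAMP response element TGACGTCA was in 5 member promoters and in 2.82% of all. The E-box CACGTG was in 5 and in 8.48%, and the NRF1 palindrome was in 1 and in 1.80%. A match is a string of letters, not a measured site.

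Srsf3 (ENSMUSG00000071172, chromosome 17, 29032673 to 29043366), a small SR protein that also carries transcripts to the cytoplasm, stood at 189.7, 207 and 258 CPM with oxy-Hb alone. It reached 283, 365 and 364 CPM with C3a and 183, 178 and 176 CPM with C3aRA. The 3 groups did not overlap, and the C3aRA libraries were the most alike. In edgeR it rose with C3a against oxy-Hb by a log2 fold change of 0.63 ± 0.13 (adjusted p = 0.018) and was 0.91 ± 0.13 higher with C3a than with C3aRA (adjusted p = 0.0044). C3aRA against oxy-Hb gave -0.28 ± 0.13 and did not pass (edgeR adjusted p = 0.605).

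Srsf2 (ENSMUSG00000034120, chromosome 11, 116849901 to 116853094), a nuclear SR protein that activates exons, stood at 85.8, 99.97 and 95.4 CPM with oxy-Hb alone, at 106, 125 and 115 CPM with C3a, and at 67.9, 71.8 and 66.5 CPM with C3aRA. Every C3aRA library lay below every other library, and every C3a library above. The difference between C3a and C3aRA was 0.75 ± 0.11 (edgeR adjusted p = 0.0044). The separate changes against oxy-Hb, 0.30 with C3a and -0.45 with C3aRA, did not pass (edgeR adjusted p = 0.112 and 0.467). Of the 50-base stretches of its transcript, 35.2% also lie in transcripts of other genes, chiefly the overlapping Mettl23. The deposited counting may split such reads, and Mettl23 itself had 212 to 571 counts per library and a C3a against C3aRA log2 fold change of 0.42 (edgeR adjusted p = 0.240).

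Srsf5 (chromosome 12, 80945504 to 80950507), the most abundant SR gene per kilobase of exon (161 ± 32.9 CPM per kilobase with oxy-Hb alone), stood at 564, 569 and 794 CPM with oxy-Hb alone. It reached 900.2, 985 and 818 CPM with C3a and 564, 467 and 501 CPM with C3aRA. The C3a and C3aRA libraries did not overlap (0.82 ± 0.14, edgeR adjusted p = 0.0078), whereas oxy-Hb replicate 3 lay close to the lowest C3a library. Srsf6 (chromosome 2, 162931528 to 162937121), an SR protein of the longer type, stood at 174, 179 and 188 CPM with oxy-Hb alone, at 204, 251 and 219 CPM with C3a and at 149, 136 and 135 CPM with C3aRA. Its 3 groups were also apart, with 0.69 ± 0.10 between C3a and C3aRA (edgeR adjusted p = 0.0054).

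Srsf1 (chromosome 11, 88047373 to 88053755), the founding member of the family, stood at 377, 399 and 461 CPM with oxy-Hb alone, at 503, 493 and 528 CPM with C3a, and at 337, 311 and 333 CPM with C3aRA. Again no 2 groups overlapped, and C3a exceeded C3aRA by 0.64 ± 0.10 (edgeR adjusted p = 0.0066). Tra2b, which binds purine-rich exons, was called as well (0.46 ± 0.11, edgeR adjusted p = 0.0242). Its paralog Tra2a was not, at 209.7 ± 5.15 CPM with C3a and 195 ± 13.0 CPM with C3aRA (0.11 ± 0.11, edgeR adjusted p = 0.589). The difference between the paralogs was not tested. The other 4 SR genes gave values of -0.36 to 0.39, and Srsf4, with group means of 10.4 to 13.3 CPM, was the one below 0.

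**Figure D2:**
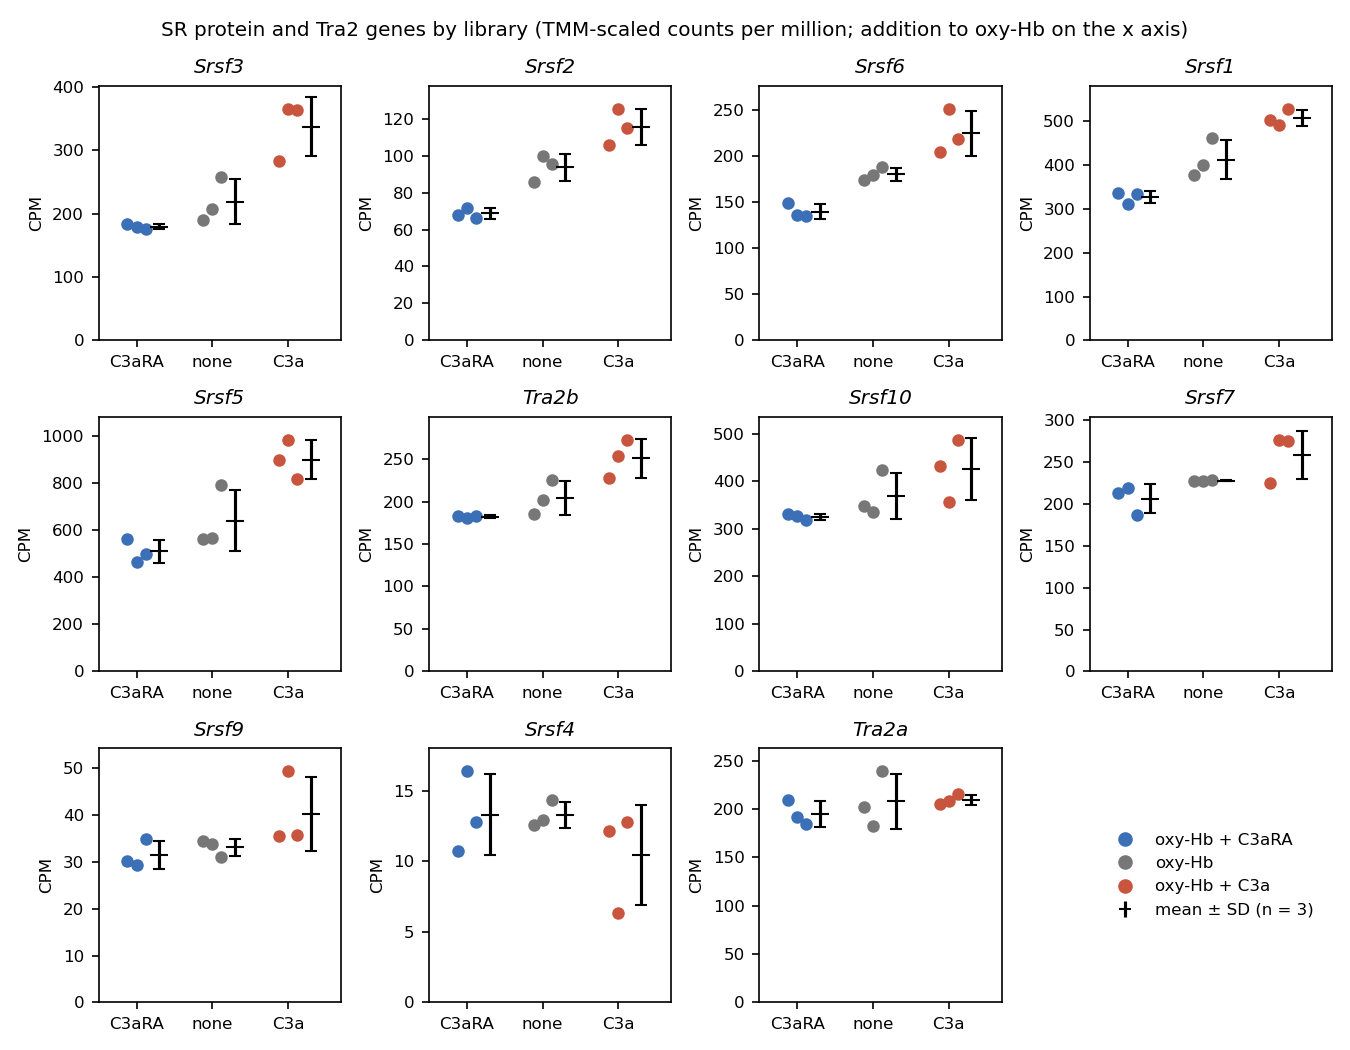
CPM (vertical axis, from 0) of the 11 SR protein and Tra2 genes in each library, by what was added to oxy-Hb (horizontal axis). Points are libraries and black marks are the mean ± SD of 3. In Srsf3, Srsf2, Srsf6 and Srsf1 the 3 groups do not overlap, and in Tra2a and Srsf4 they do.

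The calls for Srsf3, Srsf2, Srsf5, Srsf6, Srsf1 and the hnRNP gene Hnrnpm between C3a and C3aRA held in all 9 fits that left out 1 library each. They also held in the fit of these 2 groups alone (edgeR adjusted p = 0.037 to 0.044) and without C3a replicate 2, where the log2 fold changes were 0.85, 0.68, 0.75, 0.59, 0.65 and 0.71. The Srsf3 rise with C3a against oxy-Hb was lost without oxy-Hb replicate 1 or 2, with values of 0.54 to 0.77 over the 9 fits. The 2-group fit did not call it either (edgeR adjusted p = 0.092).

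Of the 9 genes of hnRNP proteins, 4 were higher with C3a than with C3aRA, with a median of 0.23, and 4 without C3a replicate 2, with a median of 0.18. Hnrnpm (ENSMUSG00000059208, chromosome 17, 33646233 to 33686860), which binds GU-rich stretches near splice sites, stood at 223, 236 and 273 CPM with oxy-Hb alone, at 301, 311 and 309 CPM with C3a, and at 181, 174 and 202 CPM with C3aRA. The groups did not overlap, and C3a exceeded C3aRA by 0.72 ± 0.10 (edgeR adjusted p = 0.0044). For this gene 28.8% of 50-base stretches are shared with other genes, chiefly March2, whose counts were 189 to 390 against 2304 to 5971 for Hnrnpm. Hnrnpk, which binds C-rich RNA, rose with C3a against both other groups, by 0.42 ± 0.10 against oxy-Hb (edgeR adjusted p = 0.0268) and 0.40 ± 0.10 against C3aRA (edgeR adjusted p = 0.0294). Its levels were 519, 542 and 561 CPM with oxy-Hb alone, 664, 772 and 738 CPM with C3a and 532, 574 and 544 CPM with C3aRA, so the C3aRA libraries overlapped the oxy-Hb ones and all C3a libraries were higher. The share of its 50-base stretches found elsewhere was 37.8%. Its call against oxy-Hb survived leaving out C3a replicate 1 or 2 but none of the other 7 libraries, with values of 0.37 to 0.49.

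Hnrnpu, a scaffold protein of chromatin and RNA, was called between C3a and C3aRA (0.45 ± 0.11, edgeR adjusted p = 0.0273), with 863, 732 and 903 CPM against 611, 593 and 619 CPM. Rbmxl1 was called too (0.47 ± 0.10, edgeR adjusted p = 0.0191), but 79.0% of its 50-base stretches occur in other genes, so its counts are uncertain. Its paralog Rbmx gave -0.18 ± 0.14. Hnrnpa1, the most abundant member of all per kilobase (173 ± 14.8 CPM per kilobase with oxy-Hb alone), gave 0.19 ± 0.10, and its paralog Hnrnpa3 gave 0.05 ± 0.13. Neither passed. Of the 50-base stretches of Hnrnpa1, 28.3% occur in other genes, chiefly Gm10052. That gene had 3801 to 5869 counts against 6939 to 11624 for Hnrnpa1, so the level of Hnrnpa1 is uncertain.

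Among the 12 exon junction, THO and cap-binding genes, whose proteins mark spliced transcripts and carry them out of the nucleus, 3 were higher with C3a than with C3aRA and the median was 0.34. There were also 3 without C3a replicate 2, and the median was 0.22. Ncbp2, the cap-binding subunit of the nuclear cap complex, stood at 56.8, 60.4 and 72.5 CPM with oxy-Hb alone, at 73.7, 89.6 and 86.7 CPM with C3a and at 50.1, 50.1 and 53.2 CPM with C3aRA. The groups were apart, and C3a exceeded C3aRA by 0.70 ± 0.12 (edgeR adjusted p = 0.0084), a call lost without C3aRA replicate 1 while the value stayed within 0.64 to 0.79. Magoh, a core exon junction protein with a transcript of 692 nt, stood at 53.9, 61.5 and 61.9 CPM with oxy-Hb alone, at 76.2, 117 and 82.1 CPM with C3a and at 45.5, 60.5 and 55.3 CPM with C3aRA.

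The highest Magoh value was that of C3a replicate 2, the library in which short members stood high. Magoh rose by 0.64 ± 0.16 against oxy-Hb (edgeR adjusted p = 0.0395) and stood 0.77 ± 0.16 above C3aRA (edgeR adjusted p = 0.0163). Without C3a replicate 2 these values were 0.42 and 0.55 and both calls stayed (edgeR adjusted p = 0.013 and 0.00088). The first held in the 3 fits that dropped a C3a library and in no other (0.42 to 0.77). The second was lost without C3aRA replicate 1 or 3 and held in the other 7 fits (0.55 to 0.90). Its near copy Magohb gave 0.61 ± 0.20 against oxy-Hb and did not pass (edgeR adjusted p = 0.0978), and 55.7% of its 50-base stretches occur elsewhere. Alyref, an export adaptor, was the third call between C3a and C3aRA (0.48 ± 0.11, edgeR adjusted p = 0.0221).

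In the U1 group, which recognises the 5′ end of introns, 1 of 8 genes was higher with C3a than with C3aRA and 1 lower, with and without C3a replicate 2, and the median was 0.04. Ddx5 (ENSMUSG00000020719, chromosome 11, 106780355 to 106789185), an RNA helicase that can dislodge U1 from the splice site, stood at 696, 702 and 765 CPM with oxy-Hb alone, at 956, 1026 and 960.3 CPM with C3a and at 717, 712 and 669.6 CPM with C3aRA. All C3a libraries lay above the other 6, which overlapped. It rose with C3a by 0.44 ± 0.09 (edgeR adjusted p = 0.0186) and stood 0.49 ± 0.09 above C3aRA (edgeR adjusted p = 0.0113). Ddx5 was the most abundant U1 gene per kilobase with oxy-Hb alone (125 ± 6.64 CPM per kilobase). Of its 50-base stretches 23.9% occur in other genes, chiefly Gm12183, whose counts were 146 to 376 against 9115 to 19701 for Ddx5. The first call was lost without replicate 1 or 2 of oxy-Hb or replicate 2 of C3aRA (0.41 to 0.50). The second was lost without any 1 of the C3aRA libraries (0.45 to 0.52).

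Prpf40b (chromosome 15, 99295087 to 99317018), a protein that works with U1, fell with C3a. It stood at 52.6, 48.6 and 43.3 CPM with oxy-Hb alone, at 31.5, 30.8 and 30.6 CPM with C3a and at 55.2, 40.7 and 55.8 CPM with C3aRA. The C3a libraries were almost equal and lay below the other 6. Against oxy-Hb the log2 fold change was -0.64 ± 0.14 (edgeR adjusted p = 0.0211) and against C3aRA it was -0.71 ± 0.14 (edgeR adjusted p = 0.0126). With length and GC content of transcripts corrected for, the first became -0.39 and missed the threshold (edgeR adjusted p = 0.052), and it was also lost without oxy-Hb replicate 1 or 2 (-0.70 to -0.57). The second was lost without C3aRA replicate 1 or 3 (-0.84 to -0.63).

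The 22 tested genes of the U2 group, which recognises the branch point, had a median of 0.25 between C3a and C3aRA, with 2 higher. The median was 0.13 and 6 were higher without C3a replicate 2. Sf3b3, a large scaffold of the SF3B complex, stood at 197, 158 and 221 CPM with C3a, at 121, 132 and 129 CPM with C3aRA and at 144, 154 and 169 CPM with oxy-Hb alone. C3a replicate 2 was the lowest of its group and lay among the oxy-Hb libraries. The difference between C3a and C3aRA was 0.60 ± 0.12 (edgeR adjusted p = 0.0164), and the call was lost without any 1 of the C3aRA libraries (0.49 to 0.71). Ddx42, a helicase that binds the SF3B complex, was the other call (0.39 ± 0.10, edgeR adjusted p = 0.0396), lost without any 1 of the libraries other than C3a replicates 1 and 2. U2af1, the small subunit that reads the 3′ splice site, shares 59.4% of its 50-base stretches with other genes. It was called in no comparison with all 9 libraries, and was among the 6 higher with C3a than with C3aRA without C3a replicate 2.

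Snrpa1 and Cherp changed with C3a against oxy-Hb in opposite directions. Snrpa1, a protein bound to U2 RNA, stood at 68.4, 73.3 and 64.9 CPM with oxy-Hb alone, at 80.7, 124 and 103 CPM with C3a and at 83.6, 85.1 and 84.9 CPM with C3aRA. Both additions lay above oxy-Hb alone, and C3a replicate 2 was the highest. The rise with C3a was 0.57 ± 0.14 (edgeR adjusted p = 0.0325) and 0.41 without that library, and the value with C3aRA, 0.30 ± 0.14, did not pass (edgeR adjusted p = 0.605). Cherp, a protein found with U2, stood at 55.4, 58.9 and 48.1 CPM with oxy-Hb alone, at 40.7, 30.5 and 36.8 CPM with C3a, and at 43.6, 40.6 and 49.0 CPM with C3aRA. All C3a libraries lay below oxy-Hb alone, and the C3aRA libraries overlapped both. It fell with C3a by 0.59 on the log2 scale (SE 0.14, edgeR adjusted p = 0.0283) and did not pass after the length and GC correction (-0.36, edgeR adjusted p = 0.060). The Snrpa1 call survived leaving out C3a replicate 1 or 2 alone (0.41 to 0.73). The Cherp call was lost without replicate 1 or 2 of oxy-Hb or replicate 3 of C3a (-0.68 to -0.49).

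Per kilobase of exon with oxy-Hb alone, the top member of the U2 group was Snrpb2 (68.1 ± 3.69 CPM per kilobase), a protein bound to U2 RNA. In the Prp19 group it was Cwc15 (66.0 ± 0.758), and in the Lsm group Lsm4 (72.0 ± 2.88). Genes of hnRNP proteins had the highest role median (63.9) and late-step genes the lowest (12.3). These are levels, and none of Snrpb2, Cwc15, Lsm4 or the 3 members without a role group, Pqbp1, Alyref2 and Rp9, was called in any comparison, with or without C3a replicate 2.

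The 19 genes of the U4/U6, U5 and tri-snRNP group had a median of 0.06 between C3a and C3aRA, with 2 higher, Prpf31 (0.46 ± 0.11, edgeR adjusted p = 0.0251), which holds U4/U6 to U5, and Snu13 (0.45 ± 0.11, edgeR adjusted p = 0.0346), which binds U4 RNA. These were 0.11 and 5 without C3a replicate 2. Prpf38a gave 0.06 ± 0.10 and its paralog Prpf38b gave -0.24 ± 0.12 there, and neither passed. The 17 Prp19 genes had a median of 0.19, with 1 higher, and without C3a replicate 2 one of 0.15, with 5 higher. The call with all libraries was Ppil1, a cyclophilin of the complex, at 32.1, 39.4 and 38.1 CPM with C3a and 23.0, 18.7 and 23.2 CPM with C3aRA (0.76 ± 0.14, edgeR adjusted p = 0.0104), a call lost without C3aRA replicate 1 or 2 (0.66 to 0.85). The 6 late-step helicases and second-step factors had a median of -0.03, and no member was called in any of the 3 comparisons, with or without C3a replicate 2. Slu7, which helps choose the 3′ splice site, stood at 119 ± 4.23, 136 ± 9.26 and 133 ± 1.34 CPM with oxy-Hb alone, C3a and C3aRA. The median transcript of this group was 3579.5 nt, and without C3a replicate 2 its median for C3a against oxy-Hb went from -0.01 to 0.10. Other groups with long transcripts moved the other way, U1 (4241 nt) from 0.10 to 0.03 and SR and Tra2 (3527 nt) from 0.30 to 0.23. A link with length was not tested.

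The Sm proteins, which form the ring around U1, U2, U4 and U5 RNA, had a median of 0.35 between C3a and C3aRA, and the Lsm proteins, which form the ring on U6 RNA, one of 0.36. Of the 7 genes in each group, 2 Sm genes and 1 Lsm gene were higher, with and without C3a replicate 2, and without it the medians were 0.29 and 0.23. Snrpd1, the Sm gene with the highest level per kilobase (54.4 ± 6.46 CPM per kilobase with oxy-Hb alone), stood at 130.1, 164 and 147 CPM with C3a and at 92.2, 106 and 109 CPM with C3aRA (0.52 ± 0.12, edgeR adjusted p = 0.0278). Snrpb (0.46 ± 0.11, edgeR adjusted p = 0.0299) and Lsm6 (0.46 ± 0.13, edgeR adjusted p = 0.0466) were the others. These are short transcripts, with a median of 1055 nt for Sm and 1586 nt for Lsm genes, and C3a replicate 2 was the highest library in the sums of both groups. Without it the Sm median for C3a against oxy-Hb went from 0.29 to 0.11 and the Lsm median from 0.31 to 0.12. Snrpf, listed with 1 to 16 counts per library, shares 89.5% of its 50-base stretches with other genes, chiefly Ccdc38, so no level of this Sm subunit can be read from the counts. Tra2b, Rbmxl1 and Alyref lost their calls between C3a and C3aRA without C3a replicate 3 or any 1 of the C3aRA libraries. Hnrnpu, Hnrnpk, Prpf31, Snrpd1 and Snrpb lost them without oxy-Hb replicate 2 as well, Lsm6 also without oxy-Hb replicate 1, and Snu13 without any 1 of the oxy-Hb libraries. Over these fits the values of these 10 genes ran from 0.34 to 0.61.

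**Figure D3:**
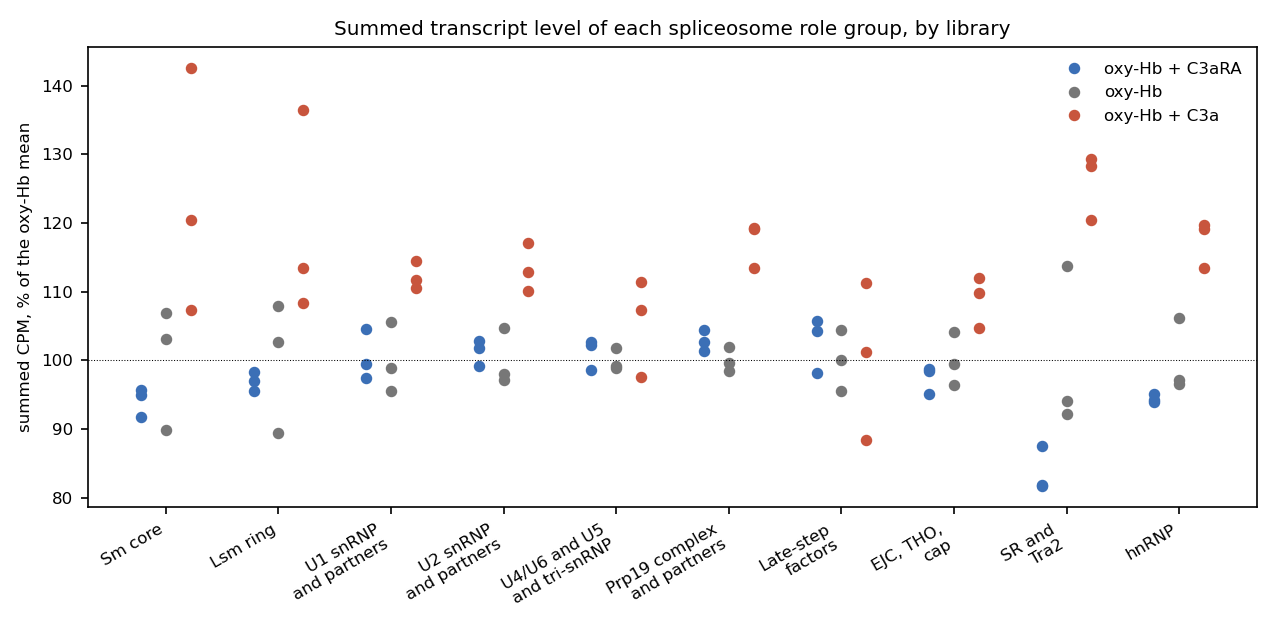
Summed CPM of each role group in each library, as a percentage of the mean of the 3 oxy-Hb libraries (vertical axis), with role groups along the horizontal axis. The SR and Tra2 sums with C3aRA lie below those of oxy-Hb alone and those with C3a above, and the top Sm and Lsm points are both C3a replicate 2.

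Counted over all members, 5 of 121 rose and 2 fell with C3a against oxy-Hb, where 0.905% of all tested genes rose and 3.04% fell (3.94% in either direction). Those that rose were Srsf3, Ddx5, Hnrnpk, Snrpa1 and Magoh, and those that fell were Prpf40b and Cherp. The median member stood at 0.19, against 0.00 for all tested genes, and 93 members had a value above 0. Libraries did not overlap for 46 members higher with C3a and 9 lower, against 13.2% and 14.6% of all genes. Without C3a replicate 2, 30 members rose and 3 fell, against 4.0% and 5.55% of genes. Total count scaling gave 4 rising and 3 falling (0.24% and 4.69% of genes), upper quartile scaling 5 and 3 (0.792% and 3.5%), and the length and GC correction 20 and 0 (3.32% and 2.35%). The calls depended on the other libraries as well: without oxy-Hb replicate 1 or replicate 2 no member was called, and 0.37% and 0.736% of genes were, and the fit of the 2 groups alone called none and 0.72% of genes. With all 9 libraries 52 members had an unadjusted p below 0.05, 45 higher and 7 lower, against 11.5% and 12.6% of genes. DESeq2 called 26 members and 9.56% of genes, a fit without the count filter 15 and 4.58%, and limma-voom with library quality weights 41 and 11.6%. The authors' deposited table has the same 5 members higher and the same 2 lower at an adjusted p below 0.05, where 0.379% and 1.84% of its genes were higher and lower.

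With C3aRA against oxy-Hb, edgeR called no member and 0.0% of all tested genes. At an unadjusted p below 0.05, 4 members were higher and 14 lower, against 3.37% and 4.78% of genes. DESeq2 and limma-voom without weights called no member, and 0.0778% and 0.0% of genes. With library quality weights limma-voom called 0 members higher and 6 lower, against 1.58% and 1.55% of genes. In edgeR the median member stood at -0.05, against -0.01 for all genes. Without overlap, 15 members were higher and 23 lower, against 11.9% and 11.0% of genes. The lowest p values on the lower side belonged to Srsf2 (-0.45 ± 0.11), Hnrnpm (-0.39 ± 0.10) and Srsf6 (-0.37 ± 0.10), with edgeR adjusted p of 0.467, 0.479 and 0.479. On the higher side they belonged to Prpf6 (0.27 ± 0.11), a U5 protein, Sf3b2 (0.24 ± 0.10), an SF3B subunit, and Snrpa1. Prpf6 stood at 132, 122 and 131 CPM with oxy-Hb alone and at 165, 147 and 153 CPM with C3aRA, with no overlap.

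C3a replicate 2 enters the pooled spread of this comparison too. Without that library, 1 member was higher (Prpf6) and 6 lower (Srsf2, Hnrnpm, Srsf6, Srsf1, Hnrnpu and Sf3b3), against 1.88% and 1.38% of genes. The fit of the oxy-Hb and C3aRA libraries alone called 3 higher (Prpf6, Snrpa1 and Sf3b2) and 7 lower, the same 6 and Srsf3, against 2.48% and 1.94%. The authors' deposited table lists 5 members as higher, Prpf6, Sf3b2 and Snrpa1 among them, and the same 7 as lower, with 2.06% and 1.06% of its genes higher and lower.

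C3a against C3aRA tests the difference between the additions directly. Here the oxy-Hb libraries enter through the shared spread, the count filter and the TMM scaling. Of the 121 members, 22 were higher with C3a and 1, Prpf40b, lower, against 2.87% and 3.32% of all tested genes (6.19% in either direction). Restricted to genes above a 5 CPM mean, 22 of 119 members were higher and 1 lower, against 3.99% and 5.05%. The median member stood at 0.23 against 0.01, and 97 members had a value above 0. Libraries did not overlap for 52 members higher with C3a and 5 lower, against 14.1% and 14.7% of genes. Without C3a replicate 2, 35 were higher and 1 lower, against 5.97% and 6.54%, while the fit of these 2 groups alone called 8 and 0.875% of genes. DESeq2 called 35 members and 10.8% of genes, a fit without the count filter 35 and 5.75%, and quality weights 42 and 14.1%. Leaving out C3aRA replicate 1, 2 or 3 left 6, 9 and 8 members called, with 0.361%, 1.19% and 1.02% of genes. Leaving out C3a replicate 3 left 12 members and 2.88% of genes. The 2 comparisons with oxy-Hb share their control libraries, so values in them are not independent of each other.

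**Figure D4:**
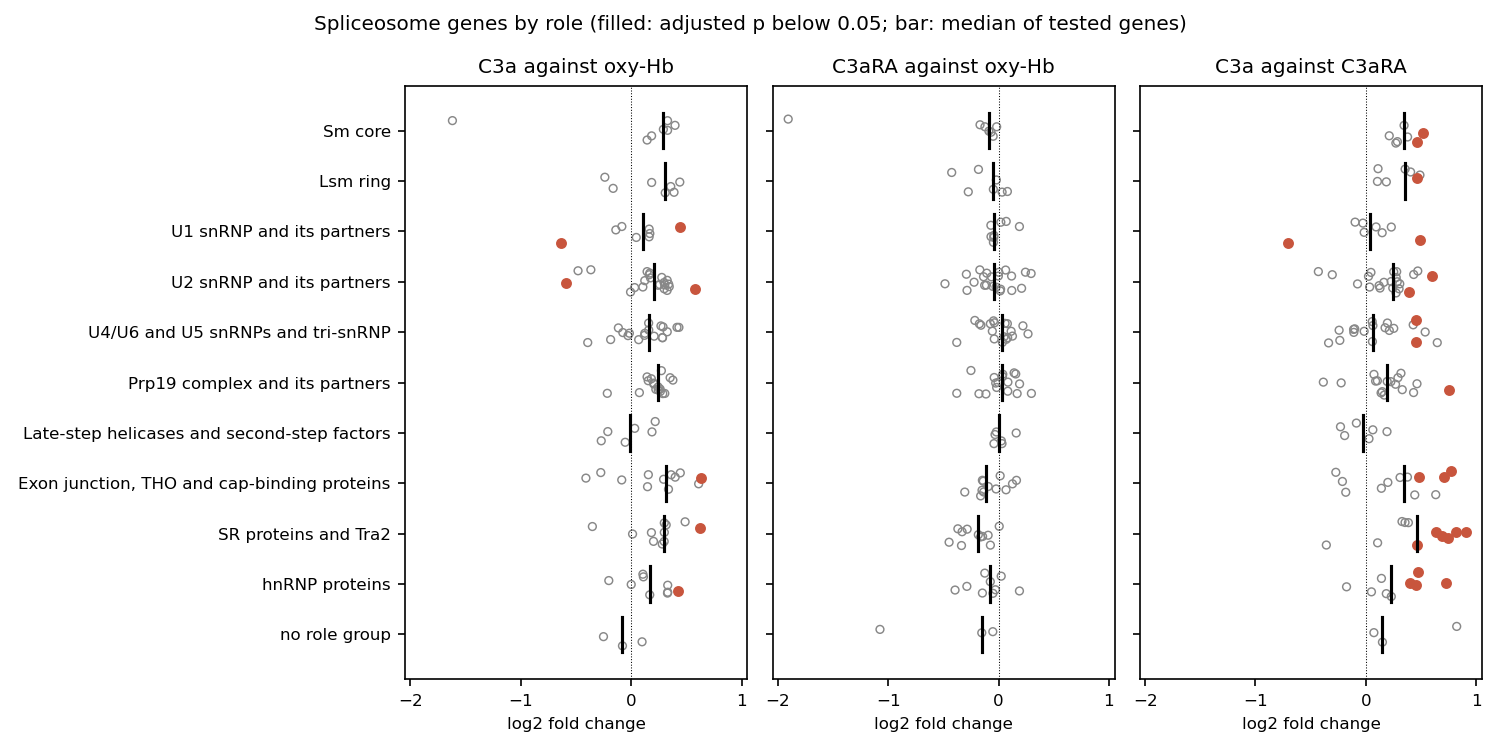
Log2 fold change (horizontal axis) of each tested spliceosome gene by role (vertical axis) in the 3 comparisons. Filled points passed in edgeR, open points did not, and black bars are medians, which for SR and Tra2 genes are 0.30, -0.18 and 0.46 from left to right.

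**Figure D5:**
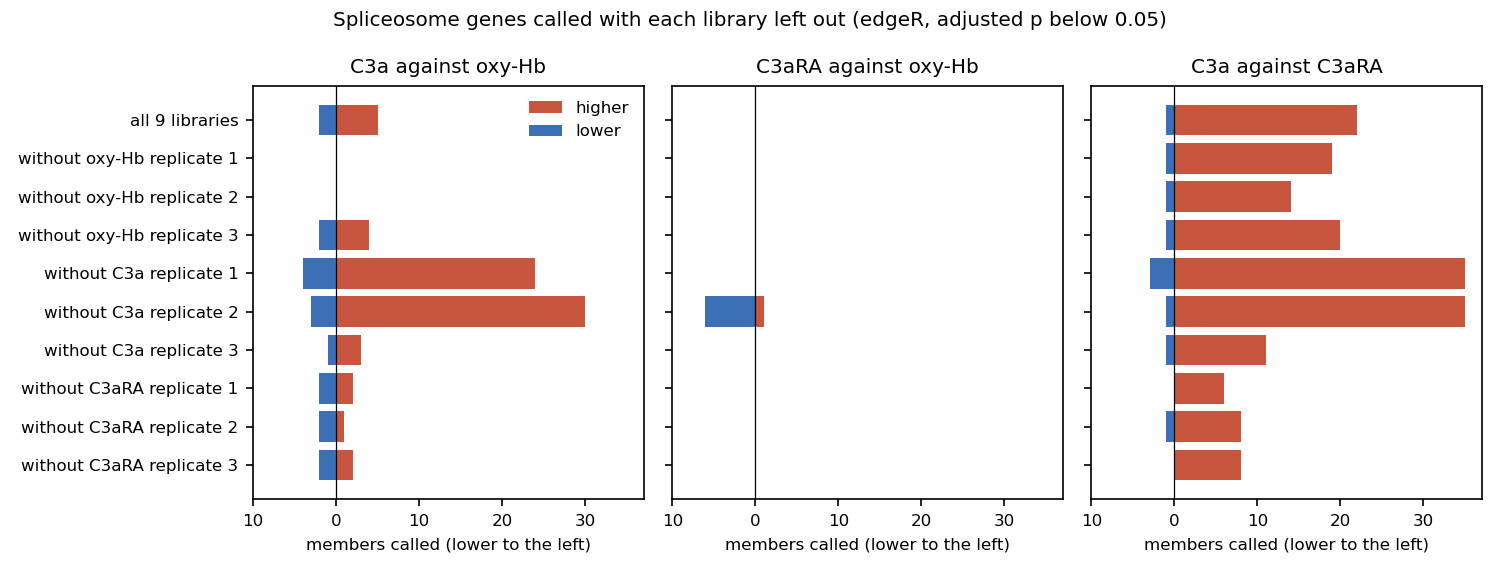
Number of spliceosome genes called higher (right) or lower (left) in edgeR with all 9 libraries and with each left out, for the 3 comparisons. Calls against oxy-Hb ran from 0 to 33 with C3a and from 0 to 7 with C3aRA, and those between C3a and C3aRA from 6 to 38.

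Splicing genes outside the pathway term were read from 5 lists with 93 tested genes. With C3a against C3aRA 6 were higher and 4 lower, where 2.87% and 3.32% of all tested genes were. With C3a against oxy-Hb 2 were higher and 5 lower, against 0.905% and 3.04%, and with C3aRA against oxy-Hb none was called. Without C3a replicate 2 the counts were 19 and 6 (5.97% and 6.54% of genes), 12 and 8 (4.0% and 5.55%), and 1 and 6 (1.88% and 1.38%). Among the 37 regulators of splice-site choice, the hnRNP genes Hnrnpa2b1 (0.60 ± 0.12, edgeR adjusted p = 0.0141) and Hnrnph1 (0.47 ± 0.11, edgeR adjusted p = 0.0227) were higher with C3a than with C3aRA. Of 18 genes that assemble snRNPs, Gemin6 (0.72 ± 0.14, edgeR adjusted p = 0.0126) and Clns1a (0.46 ± 0.12, edgeR adjusted p = 0.0355) were higher. Each of these 4 calls was lost without C3aRA replicate 1 or 3, and all but that of Gemin6 without replicate 2, Hnrnph1 and Clns1a also without C3a replicate 3, and Clns1a without oxy-Hb replicate 1 or 2. Their values over those fits ran from 0.36 to 0.80. The 10 genes of the minor spliceosome had no call with all 9 libraries, and 1 was lower with C3a than with C3aRA without C3a replicate 2. Of the 37 regulators, 4 were higher and 1, Sugp2, lower with C3a than with C3aRA. Sugp2 was also lower with C3a against oxy-Hb, where 1 regulator was higher. Both Sugp2 calls held without C3a replicate 2, and the call against C3aRA was lost with the length and GC correction.

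Kinases of the Clk family phosphorylate SR proteins and release them from nuclear stores. Of the 9 SR protein kinase genes tested, 2 were lower with C3a than with C3aRA and none higher. Of all tested genes, 3.32% were lower and 2.87% higher. Without C3a replicate 2 the counts were again 2 and 0, against 6.54% and 5.97% of genes. Clk4 stood at 103, 95.4 and 112 CPM with C3a, at 156, 149.9 and 137 CPM with C3aRA and at 127, 109 and 124 CPM with oxy-Hb alone. Its C3aRA libraries were the 3 highest, and the log2 fold change of C3a against C3aRA was -0.51 ± 0.11 (edgeR adjusted p = 0.0166), a call lost without C3aRA replicate 1 or 2 (-0.56 to -0.46). Clk3 gave -0.42 ± 0.11 there (edgeR adjusted p = 0.0355). Its call survived leaving out C3a replicate 1 or 2 and no other library (-0.46 to -0.34), and was lost with the length and GC correction (-0.32, edgeR adjusted p = 0.065) and in the 2-group fit (edgeR adjusted p = 0.103). Clk2 fell with C3a against oxy-Hb (-0.49 ± 0.10, edgeR adjusted p = 0.0181), with 72.1, 72.4 and 69.8 CPM against 49.9, 51.8 and 51.1 CPM, a call lost without oxy-Hb replicate 1 or 2 (-0.51 to -0.46). The difference between these kinases and the SR genes was not tested.

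Of the 19 speckle genes, Srrm2, a main scaffold of nuclear speckles, where splicing factors are stored, stood at 635, 518 and 533 CPM with oxy-Hb alone, at 319, 122 and 312 CPM with C3a and at 503, 444 and 494 CPM with C3aRA. All 3 C3a libraries were the lowest, and C3a replicate 2 was far below the other 2. It fell with C3a by 1.16 on the log2 scale (SE 0.28, edgeR adjusted p = 0.0416), and by 0.84 without that library. It missed the threshold when C3aRA replicate 3 or an oxy-Hb library was left out (-1.37 to -0.84). Scaf1 (-0.58 ± 0.12, edgeR adjusted p = 0.0196) and Scaf4 (-0.59 ± 0.14, edgeR adjusted p = 0.0344), which bind the tail of RNA polymerase II, were called lower as well. With the length and GC correction both calls were lost, at -0.16 for Scaf1 (edgeR adjusted p = 0.404) and -0.38 for Scaf4 (edgeR adjusted p = 0.065). The Scaf1 call was also lost without oxy-Hb replicate 1 or 2 (-0.63 to -0.50), and the Scaf4 call without any 1 of the oxy-Hb or the C3aRA group (-0.71 to -0.46). With all 9 libraries 3 of the 19 were lower with C3a against oxy-Hb and none higher (3.04% and 0.905% of genes). Without C3a replicate 2, 5 were lower and 1 higher (5.55% and 4.0%). With the length and GC correction 2 were lower and 1 higher (2.35% and 3.32%). Against C3aRA, 2 were lower and 2 higher in each of these last fits (6.54% and 5.97%, then 3.65% and 5.0%).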

How the data were processed

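Messenger RNA of BV2 cells was sequenced in 12 samples, of which 9 had columns in the tables used here. Per the labels' protocols, libraries were made from 1.3 ug of total RNA with a SMARTER kit. The authors deposited whole-number read counts per gene, with log2 fold changes, p-values, coordinates and pathway terms. The genome is GRCm38 (mm10), per the submitters' processing notes. Aligner, counter, strandedness and the test behind the authors' p-values were not given in the sources used here, so overlapping and antisense genes cannot be told apart.

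Counts were filtered (filterByExpr, minimum count 10), TMM-scaled and fitted with edgeR 4.0.16 in R 4.3.3, with 1 coefficient per group and a robust quasi-likelihood test, checked on simulated data. Members were taken by pathway term, and members, role lists and outside lists were chosen with earlier results of these data known. Named genes were called members, at most 10 a direction, the 3 lowest p where a direction had no call, the lowest p and highest level per kilobase in each role group, members that the filter removed, paralogs, and up to 3 genes per outside list. Prpf8, Hnrnpu, Ddx42, Alyref, Snrpf, Srsf4 and Rp9 were named beyond this rule, after their values were seen. The values of 1 member that the rule names are not reported here. Transcript lengths, GC content and shared stretches of 50 bases came from GENCODE of GRCm38, and 109 of the 122 members had the same coordinates there. Promoters came from RefSeq, GRCm38.p6. Alternatives included scalings, filters, DESeq2 1.42.0, limma 3.58.1, 2-group fits, a replicate block and leaving out each library.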

Additional observations from a re-analysis of the deposited data

How the results depend on the processing

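For C3a against oxy-Hb the 7 calls became 15 with no count filter, 26 with DESeq2, 41 with limma-voom and library quality weights, 20 with the length and GC correction, 0 in the fit of the 2 groups alone and 0 at an adjusted p below 0.01. In the same order, the 3.94% of all genes called in the main fit became 4.58%, 9.56%, 11.6%, 5.67%, 0.72% and 0.714%. Leaving out 1 library gave 0 to 33 members, with 0.37% to 11.2% of genes. The median of 0.19 became 0.098 with total count scaling, where the median of all genes was -0.089, and ran from 0.16 to 0.27 without 1 library. For C3aRA against oxy-Hb the 0 calls became 6 with quality weights and 10 in the 2-group fit, and 0 to 7 without 1 library. In this comparison 0.0% of all genes became 3.12% and 4.43%, and 0.0% to 3.25% without 1 library. Its median of -0.05 became -0.11 with total count scaling, where all genes stood at -0.074. For C3a against C3aRA the 23 calls became 35 with no count filter, 35 with DESeq2, 42 with quality weights, 8 in the 2-group fit and 7 at an adjusted p below 0.01, and 6 to 38 without 1 library. In this comparison 6.19% of all genes became 5.75%, 10.8%, 14.1%, 0.875% and 0.622%, and 0.361% to 12.5% without 1 library. Its median of 0.23 became 0.17 with quality weights, and 0.16 to 0.26 without 1 library. Fits without C3a replicate 2 that were chosen after seeing the data gave 40, 16 and 40 calls with the length and GC correction, where 9.61%, 6.39% and 13.5% of all genes were called (median of the last 0.16) and 25 and 39 calls for the C3a comparisons in 2-group fits, with 7.75% and 13.9% of genes (median of the last 0.16). The cause was not tested. With the replicate number as a block, 16, 0 and 29 members were called, with 5.9%, 0.0% and 8.55% of all genes. Whether the replicate numbers pair the libraries was not settled. Same-numbered libraries correlated at -0.07 to 0.26 in their deviations from the group means. Between oxy-Hb alone and C3a, replicates 1, 2 and 3 each had their best match in the same number (0.08, 0.26 and 0.19). Against C3aRA, replicates 2 and 3 of oxy-Hb alone and replicate 3 of C3a did not. No called value of a named gene changed sign under these alternatives. Members taken by the gene ontology term for the spliceosomal complex were not run, since it held 3 genes, 1 of them a member. No level of U2af1l4 can be read from its 0 to 5 counts per library. Of its 50-base stretches 97.2% occur in other genes, chiefly Gm49396, which had 6 to 32 counts. Why its counts were low was not tested.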
